A study of Mus musculus with 16 samples.

Results

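Endocardial cushions are the swellings of the atrioventricular canal and outflow tract from which the heart valves and septa form. Signals from the myocardium, among them bone morphogenetic proteins and transforming growth factor beta, lead endocardial cells to loosen their junctions and move into a hyaluronan-rich matrix. This epithelial-to-mesenchymal transition (EMT) is driven by transcription factors that repress cadherins and other junction genes, and the cushion cells then lay down matrix of their own. The 10 genes described here were taken by name. They were the EMT-driving factors Snai1, Snai2, Twist1, Zeb1 and Zeb2 and the homeobox genes Msx1 and Msx2. The others were the HMG-box factor Sox9, the matrix protein gene Postn and the hyaluronan synthase gene Has2. All 10 were found through their Entrez gene IDs among the 27179 genes of the count table, and all 10 were among the 15785 genes with enough reads to be tested.

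RNA was sequenced from 16 samples of mouse embryonic heart at embryonic day 10.5, 4 of each of 4 genotypes. Each sample is called a heart here, though the labels do not say whether a library held 1 heart or several. The p-values for genotypes therefore weigh differences against the spread between these samples. The genotypes were Ing4+/+ Ing5+/+ (called wild-type), Ing4+/- Ing5+/+ (Ing4+/-, 1 allele lost), Ing4+/+ Ing5-/- (Ing5-/-, 2 alleles lost) and Ing4+/- Ing5-/- (3 alleles lost). The labels name no treatment, and neither the strain nor how the alleles were made is stated there. Ing4 and Ing5 encode chromatin proteins that bind methylated histone H3 as parts of histone acetyltransferase complexes, and the series title names acetylation of histone H3 lysine 14.

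The libraries held 19753100 to 35664331 counted reads. The samples belonged to 7 litters, of which none supplied wild-type and Ing5-/- hearts together. All 10 cardiomyocyte and all 10 endocardial or endothelial markers were detected in every heart. The neural crest markers Foxd3, Dlx5 and Dlx6 had too few reads to be tested, each with 0 in at least 1 heart. In the order wild-type, Ing4+/-, Ing5-/- and Ing4+/- Ing5-/-, mean Ing5 levels were 33.5, 37.2, 23.5 and 21.0 CPM (the usual read-depth scale, a gene's reads relative to the scaled total of its library) and mean Ing4 levels 39.5, 34.1, 51.0 and 34.3 CPM. The library labelled Ing5-/- 1 had 29.3 CPM of Ing5, inside the wild-type range of 28.9 to 36.9. The library labelled wild-type 2 had 28.2 CPM of Ing4, below the other wild-type hearts (42.6 to 44.4) and below all hearts of both Ing4+/- genotypes (32.0 to 36.3), so its level goes against its label. Without either library the count of called genes among the 10 was 0 in each comparison. Reads were counted over the whole gene, so a remaining level says nothing of functional protein. Of 3 hearts that stood apart on principal components (Ing4+/- 4, the library labelled Ing5-/- 1 and Ing4+/- Ing5-/- 2), the library labelled Ing5-/- 1 had the lowest summed cardiomyocyte markers (20771 CPM, other hearts at least 28314) and the highest epicardial ones (1462 CPM, other hearts at most 710). In RNA of the heart as a whole, fewer cushion cells and less RNA per cushion cell cannot be told apart.

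The DNA just before the start of 4 of these genes is shown because the Snail, Twist and Zeb proteins all bind E-boxes and these 4 encode transcription factors of the set. Each sequence covers the 250 bases before the gene's start, 5′ to 3′ on the gene's own strand, from RefSeq on GRCm38.p6. Capitals mark the letters CAGGTG on either strand (CACCTG when read on the other), the form of E-box favoured by Snail and Zeb proteins.
Snai1 (chr2:167537945-167538194, plus strand): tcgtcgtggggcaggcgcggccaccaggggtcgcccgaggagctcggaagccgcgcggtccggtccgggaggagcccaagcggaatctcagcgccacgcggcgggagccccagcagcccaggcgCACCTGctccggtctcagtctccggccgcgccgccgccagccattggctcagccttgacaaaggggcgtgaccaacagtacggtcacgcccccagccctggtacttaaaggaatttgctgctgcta
Twist1 (chr12:33957421-33957670, plus strand): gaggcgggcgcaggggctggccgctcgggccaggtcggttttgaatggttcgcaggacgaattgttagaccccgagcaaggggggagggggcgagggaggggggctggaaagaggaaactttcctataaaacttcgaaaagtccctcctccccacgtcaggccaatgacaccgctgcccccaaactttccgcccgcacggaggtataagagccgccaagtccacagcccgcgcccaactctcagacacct
Msx1 (chr5:37824586-37824835, minus strand): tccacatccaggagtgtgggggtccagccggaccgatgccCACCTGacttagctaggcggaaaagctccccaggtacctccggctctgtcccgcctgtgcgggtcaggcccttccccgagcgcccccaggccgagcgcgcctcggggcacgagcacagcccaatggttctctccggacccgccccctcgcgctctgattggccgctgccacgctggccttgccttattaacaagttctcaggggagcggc
Msx2 (chr13:53472781-53473030, minus strand): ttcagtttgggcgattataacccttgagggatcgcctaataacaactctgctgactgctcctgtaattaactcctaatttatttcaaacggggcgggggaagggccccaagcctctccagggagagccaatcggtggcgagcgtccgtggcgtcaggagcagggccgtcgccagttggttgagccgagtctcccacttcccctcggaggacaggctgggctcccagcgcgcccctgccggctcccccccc
The motif occurred once in the Snai1 window, starting 126 bases before the gene, and once in the Msx1 window, starting 210 bases before it. It was not among the letters of the Twist1 and Msx2 windows. Of 32851 windows of this length over all genes, 17.2% held it and 66.2% held the looser form CANNTG, which includes it. Promoter windows were matched for 6 of the 10 genes, and those of Zeb2 and Postn held neither form. The windows shown held 27 CpG dinucleotides for Snai1, 18 for Twist1, 20 for Msx1 and 16 for Msx2, against a median of 6 over all windows, while the Postn windows held 3 and 4. A match of letters is a description of the sequence and not a measured binding site. Of the other genes, 5 lie on GRCm38 at chr16:14705852-14709395 (Snai2), chr2:44983512-45117442 (Zeb2), chr11:112782210-112787757 (Sox9), chr3:54359267-54391041 (Postn) and chr15:56665627-56694546 (Has2). None of the 10 shares a chromosome with Ing4 or Ing5.

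Scaled to gene length, Twist1 and Postn were the most abundant of the 10 genes. Over the 16 hearts Twist1 stood at 40.6 ± 5.00 RPKM (CPM divided by gene length in kilobases; SD, n = 16) and Postn at 36.5 ± 7.86 RPKM. Twist1 was the higher in 13 of the 16 hearts, so the order of these neighbours was not the same in every heart. Zeb1 (13.6 ± 0.861 RPKM), Sox9 (12.7 ± 1.93) and Has2 (11.8 ± 1.46) followed, and Postn was above Zeb1 in all 16 hearts. Zeb1 was above Sox9 in 9 hearts and Sox9 above Has2 in 12, within their spread. Snai1 (8.75 ± 1.23 RPKM) and Msx2 (8.28 ± 1.40) lay below Has2 in all 16 hearts, and Msx1 (5.59 ± 1.10), Zeb2 (5.54 ± 0.393) and Snai2 (4.25 ± 0.922) were lowest. Msx2 was above Msx1 in all 16 hearts, whereas Msx1 and Zeb2 could not be ordered, with Msx1 higher in 8. The levels corresponded to 128 (Snai2 in Ing5-/- 3) to 4883 counted reads (Postn in Ing5-/- 2).

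The genes differed in how tightly their levels were held. Zeb1 varied by 6.34% over the 16 hearts (coefficient of variation of CPM) and Zeb2 by 7.09%, and these paralogs lay above only 19.5% and 23.6% of genes within a 2-fold range of their own level. Snai2 varied by 21.7%, Postn by 21.5% and Msx1 by 19.7%. For its level Postn was the most variable of the 10, above 97.1% of 3487 genes of similar abundance, and Sox9 lay above 89.1% of 5269.

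**Figure D1:**
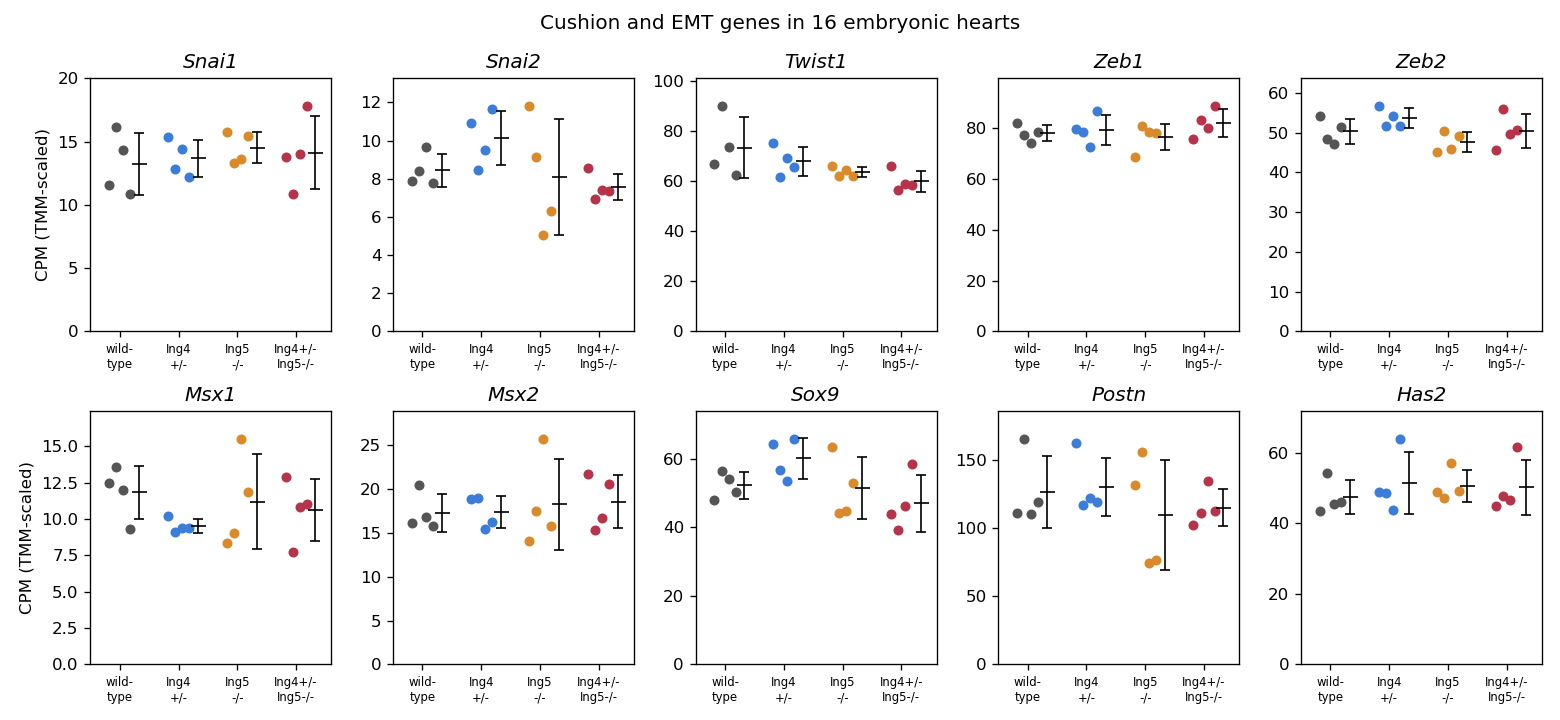
Level of each gene (CPM, y axis from 0) in every heart by genotype; circles are hearts in order of replicate number and bars are mean ± SD, n = 4. In the 5 comparisons tested the ranges of the genotypes overlap for all 10 genes. Between Ing4+/- and Ing5-/- hearts, which were not tested against each other, Zeb2 does not overlap (51.6 to 56.8 and 45.1 to 50.5 CPM). In the 5 comparisons tested, 3% to 10.2% of all genes separate in this way. For Ing4+/- against Ing5-/- hearts that share was not counted. The Ing5-/- hearts spread widely for Snai2, Msx1, Msx2 and Postn.

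None of the 10 genes passed the test in any comparison of genotypes. In Ing4+/- Ing5-/- against wild-type hearts edgeR's quasi-likelihood test called 0 of 10 at an adjusted p under 0.05, and 0.855% of all tested genes were called. The counts were also 0 of 10 in Ing5-/- against wild-type (0.0127% of all genes), Ing4+/- against wild-type (0%), Ing4+/- Ing5-/- against Ing5-/- (0.00634%) and Ing4+/- Ing5-/- against Ing4+/- hearts (1.16%). DESeq2 and limma-voom called none of them in these 5 comparisons either. A test for any difference among the 4 genotypes called 0 of 10 (0.982% of all genes), with 1 of 10 at an unadjusted p under 0.05 (12.1% of all genes). For no gene in any of the 5 comparisons did all hearts of one genotype lie above all hearts of the other, a separation that 10.2%, 4.74%, 3.78%, 3% and 10.1% of all genes showed in the same order of comparisons.

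Under the fitted model, the size of change that these data allow was narrow for most of the genes. Of the 50 estimates (10 genes in 5 comparisons), 43 had a 95% interval inside a 1.5-fold change either way and all 50 inside a 2-fold change. The model took 1 spread per gene for all 4 genotypes and no litter term. In Ing5-/- hearts Snai2 varied by 37.3%, Postn by 36.8%, Msx1 by 29.2% and Msx2 by 28.4%. The same genes varied by 9.09%, 11.9%, 20.1% and 16.5% in Ing4+/- Ing5-/- hearts. Their intervals against Ing5-/- hearts may therefore be too narrow. The most extreme bounds were a 0.562-fold level (Snai2, Ing4+/- Ing5-/- against Ing4+/-) and a 1.59-fold level (Snai2, Ing4+/- against wild-type). In 4 of the 50 the unadjusted p was under 0.05: Twist1 in 2 comparisons and Sox9 and Snai2 in 1 each. Between Ing4+/- Ing5-/- and wild-type hearts 1 of 10 was under it (11.4% of all genes), between Ing5-/- and wild-type hearts 1 of 10 (9.59%) and between Ing4+/- Ing5-/- and Ing4+/- hearts 2 of 10 (13.9%). Between Ing4+/- and wild-type hearts (4.73%) and between Ing4+/- Ing5-/- and Ing5-/- hearts (6.63%) it was 0 of 10. With 10 genes, these counts are close to what the background shares give. The median log2 fold change of the 10 was -0.07 in Ing4+/- Ing5-/- against wild-type hearts, and 0.00 over all genes.

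**Figure D2:**
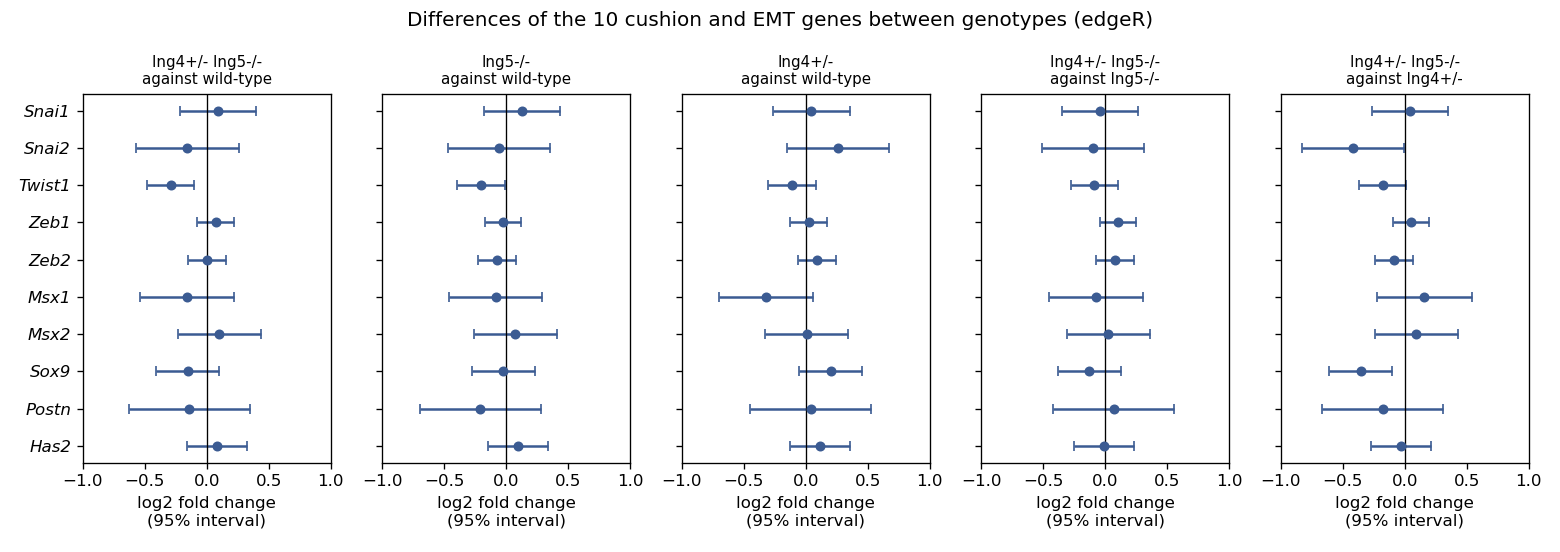
Log2 fold change (x axis) with its 95% interval from edgeR for each gene in the 5 comparisons of genotypes, n = 4 hearts per genotype. Of the 50 intervals 46 include 0, and the 4 that do not belong to Twist1, Sox9 and Snai2.

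Among the EMT-driving factors, Twist1, a basic helix-loop-helix factor of cushion mesenchyme and neural crest, had the smallest adjusted p against wild-type. It stood at 67.0, 90.2, 73.7 and 62.5 CPM in the 4 wild-type hearts and at 75.1, 61.7, 69.2 and 65.5 CPM in Ing4+/- hearts. In Ing5-/- hearts it stood at 66.1, 62.1, 64.4 and 62.2 CPM, and in Ing4+/- Ing5-/- hearts at 65.9, 56.6, 59.0 and 58.3 CPM. The means were 73.3, 67.9, 63.7 and 59.95 CPM with 0, 1, 2 and 3 alleles lost, but the ranges of neighbouring genotypes overlapped. The highest value was that of the library labelled wild-type 2, without which the wild-type mean was 67.7 CPM, no higher than that of Ing4+/- hearts. The difference between Ing4+/- Ing5-/- and wild-type hearts was -0.29 ± 0.09 on the log2 scale (SE; 95% interval -0.48 to -0.10; edgeR adjusted p = 0.186). Without the library labelled wild-type 2 it was -0.18 (adjusted p = 0.523). The single hearts of both genotypes from litter 4 differed by -0.24 and those from litter 6 by -0.08 (log2 of CPM + 1). Under the 27 other settings tried this difference ranged from -0.36 to -0.16, with adjusted p from 0.101 to 0.787. Summed neural crest markers were 216 to 248 CPM in wild-type and 191 to 246 CPM in Ing4+/- Ing5-/- hearts, and their part in the Twist1 level was not tested.

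Snai2, the zinc finger repressor Slug, stood at 7.88, 8.39, 9.67 and 7.79 CPM in wild-type and at 10.9, 8.46, 9.50 and 11.6 CPM in Ing4+/- hearts. In Ing5-/- hearts it ranged most, with 11.8, 9.12, 5.08 and 6.31 CPM, while the Ing4+/- Ing5-/- hearts had 8.54, 6.93, 7.43 and 7.35 CPM. All Ing4+/- Ing5-/- hearts but 1 lay below every Ing4+/- heart, and the difference was -0.42 ± 0.20 (edgeR adjusted p = 0.352). For Snai1, the related Snail repressor, the same comparison gave 0.04 ± 0.15 (95% interval -0.26 to 0.35), and the 2 genes were not tested against each other. Mean Snai1 was 14.1 ± 2.88 CPM in Ing4+/- Ing5-/- and 13.2 ± 2.44 CPM in wild-type hearts, a log2 difference of 0.09 ± 0.15. The zinc finger and homeodomain repressors Zeb1 and Zeb2 gave the tightest limits. Their differences between Ing4+/- Ing5-/- and wild-type hearts were 0.07 ± 0.07 (interval -0.08 to 0.22) and 0.00 ± 0.07 (-0.15 to 0.16).

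Sox9, which marks cushion mesenchyme and directs cartilage-like matrix genes, had the smallest adjusted p of all 50 estimates. It stood at 48.0, 56.6, 54.0 and 50.4 CPM in wild-type and at 64.2, 56.6, 53.7 and 66.0 CPM in Ing4+/- hearts. Ing5-/- hearts had 63.5, 44.1, 44.9 and 53.0 CPM and Ing4+/- Ing5-/- hearts 43.9, 39.2, 46.4 and 58.6 CPM. Of the Ing4+/- Ing5-/- hearts 3 lay below every Ing4+/- heart and the fourth, replicate 4, lay among them. The difference from Ing4+/- hearts was -0.36 ± 0.12 (95% interval -0.61 to -0.10; edgeR adjusted p = 0.178). Without Ing4+/- Ing5-/- 4 it was -0.48 (adjusted p = 0.0549), the lowest adjusted p that any gene of the 10 reached in any setting, and without the 3 hearts that stood apart it was -0.23. Within litters 4, 6 and 7 the single hearts of these genotypes differed by -0.52, -0.21 and -0.17. Against wild-type hearts the difference was -0.15 ± 0.12 in Ing4+/- Ing5-/- (adjusted p = 0.687) and 0.20 ± 0.12 in Ing4+/- hearts (adjusted p = 0.963).

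The homeobox genes Msx1 and Msx2, targets of bone morphogenetic protein signalling that act redundantly in the cushions, differed more within Ing5-/- hearts than between genotypes. In the 4 Ing5-/- hearts Msx1 stood at 8.33, 9.05, 15.5 and 11.9 CPM and Msx2 at 14.1, 17.5, 25.8 and 15.8 CPM. Ing5-/- 3 had the highest level of both genes among all 16 hearts. Mean Msx1 was 11.8 ± 1.80 CPM (wild-type), 9.51 ± 0.474 CPM (Ing4+/-), 11.2 ± 3.27 CPM (Ing5-/-) and 10.6 ± 2.14 CPM (Ing4+/- Ing5-/-). The largest of its differences, between Ing4+/- and wild-type hearts, was -0.32 ± 0.18 (edgeR adjusted p = 0.963). Mean Msx2 lay between 17.3 and 18.6 CPM in all 4 genotypes. The antisense gene Msx1os overlaps Msx1, and its reads came to 23.8% of those of Msx1 in the library labelled Ing5-/- 1 and at most 8.20% in the other hearts. No source used here gives the strand setting of the counting, so reads of such partners may not be fully separated. Zeb2os and Has2os came to at most 4.71% and 1.04% of their partners.

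Postn, which encodes the matricellular protein periostin, spread widely within genotypes. It stood at 111.2, 165.8, 110.1 and 119.4 CPM in wild-type hearts and at 162.2, 117.3, 122.2 and 118.9 CPM in Ing4+/- hearts, with a single high heart in each. The Ing5-/- hearts fell apart into 131.3 and 155.7 CPM (replicates 1 and 2, both of litter 1) and 74.7 and 76.7 CPM (replicates 3 and 4, of litters 2 and 7). Ing4+/- Ing5-/- hearts lay at 102.0, 110.9, 134.3 and 112.6 CPM. The difference between Ing4+/- Ing5-/- and wild-type hearts was -0.14 ± 0.23 (95% interval -0.63 to 0.35; edgeR adjusted p = 0.872). Without the library labelled wild-type 2, the highest of all 16, it was 0.02. Has2, the enzyme that makes most of the hyaluronan of the cushions, was less variable between hearts, with means of 47.4 ± 4.79 CPM (wild-type), 51.3 ± 8.80 CPM (Ing4+/-), 50.6 ± 4.47 CPM (Ing5-/-) and 50.2 ± 7.77 CPM (Ing4+/- Ing5-/-). The difference between the last genotype and wild-type was 0.08 ± 0.12 (interval -0.16 to 0.32).

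The interaction of Ing4 and Ing5, which asks whether losing 1 Ing4 allele had another effect without Ing5 than with it, was called for 0 of 10 genes (0% of all genes by edgeR, 5.88% at an unadjusted p under 0.05, and 0 of the 10). Sox9 came closest, with -0.33 ± 0.17 (edgeR adjusted p = 0.843). DESeq2 and limma-voom also called no interaction among the 10.

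No pair of the 10 genes was found to vary together within genotypes. After the genotype mean was taken away, 45 pairs were compared over the 16 hearts, and 26 correlated positively. The strongest was Msx1 with Msx2 (r = 0.79, permutation p = 0.00397, adjusted p = 0.126; rho = 0.65, permutation p = 0.0339, adjusted p = 0.373). Without the 2 hearts farthest from the median of Msx1, Ing5-/- 3 and Ing4+/- Ing5-/- 2, r was 0.63, and without the 3 hearts that stood apart it was 0.69. Snai1 went with Sox9 (r = 0.70, permutation p = 0.00558, adjusted p = 0.126; rho = 0.66, permutation p = 0.00916, adjusted p = 0.268; r = 0.50 without the 2 farthest hearts). Snai1 also went with Twist1 (r = 0.65, permutation p = 0.0226, adjusted p = 0.339; rho = 0.71, permutation p = 0.0179, adjusted p = 0.268; r = 0.84 without the 2 farthest). None of the 45 passed after Benjamini-Hochberg adjustment. Hearts of 1 litter share a mother, and the pairs share the same 16 libraries.

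**Figure D3:**
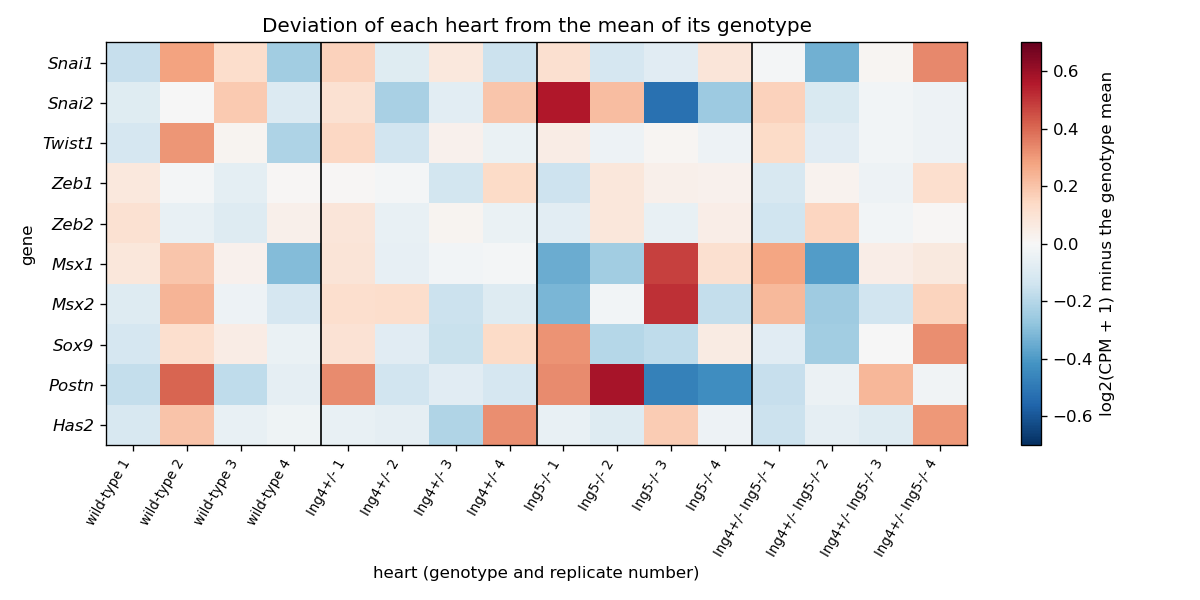
Log2(CPM + 1) of each gene (rows) in each heart (columns) minus the mean of its genotype; red is above and blue below, on a scale of -0.7 to 0.7, and black lines part the genotypes. The library labelled Ing5-/- 1 and Ing5-/- 3 show opposite colours for Snai2, Msx1, Msx2, Sox9 and Postn.

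The widest departures from a genotype's mean lay among the Ing5-/- hearts. Postn in Ing5-/- 2 was farthest, at 0.58 above the mean on the log2 scale, and in Ing5-/- 4 Postn lay at -0.44. Ing5-/- 3 lay at -0.52 for Snai2, -0.18 for Sox9 and -0.47 for Postn, and at 0.48 for Msx1 and 0.51 for Msx2. The library labelled Ing5-/- 1 lay at 0.56 for Snai2, 0.32 for Sox9 and 0.33 for Postn, and at -0.35 for Msx1 and -0.32 for Msx2. The deviations of these libraries, 1 and 3, had opposite signs for 8 of the 10 genes and the same sign for Twist1 (0.05 and 0.02) and Zeb2 (-0.08 and -0.05). Deviations from a shared mean balance out within a genotype, which favours opposite signs, and no other pair of hearts was counted. Summed cardiomyocyte markers were 20771 CPM in library 1 and 34861 CPM in library 3, and summed epicardial markers 1462 and 547 CPM. The part of these cell types in the levels of the 10 genes was not tested. In Ing4+/- 1, 9 of the 10 genes lay above the genotype's mean, and in Ing4+/- 2, 9 of 10 lay below it. In wild-type 4 and Ing4+/- Ing5-/- 2, 8 of 10 lay below.

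Among 11343 genes with a mean of at least 5 CPM, the patterns most like those of the 10 genes over the 16 hearts were found by Pearson's r of log2(CPM + 1), as a description. Postn was most like Ltbp3 (r = 0.88, rho = 0.85), a binding protein of latent transforming growth factor beta, Pdgfrb (0.87, 0.83), a receptor of mural and mesenchymal cells, and Itm2b (0.87, 0.85). Sox9 was most like Zfp105 (r = 0.89, rho = 0.85), Plcl1 (0.87, 0.90) and the SOX family gene Sox5 (0.85, 0.86). Has2 was most like Zfp128 (0.83, 0.83), Erp44 (0.82, 0.84) and Hapln1 (0.78, 0.64), which encodes a protein that links hyaluronan to proteoglycan. Snai2 was most like Wdr5b (0.86, 0.85), Plpp3 (0.85, 0.91) and Mgst1 (0.84, 0.89), Snai1 like Dbn1 (0.86, 0.87), Pnp (0.81, 0.83) and Ier5l (0.79, 0.82), and Twist1 like Metrn (0.79, 0.80), Ift57 (0.78, 0.85) and Med8 (0.78, 0.81). Eri3 was among the 3 nearest for both Msx1 (0.88, 0.87, with Spr and Triobp) and Msx2 (0.81, 0.73, with Itm2c and Eno3). Zeb1 was most like Rnf19a (0.86, 0.80), Galnt1 and Acer2, and Zeb2 like Ids (0.86, 0.80), Sos1 and Manea. With so many genes compared over 16 hearts, high values arise readily.

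Around the 10 genes, 92 other genes of cushion formation were examined in 4 lists, and 89 had enough reads to be tested. In Ing4+/- Ing5-/- against wild-type hearts 2 of the 89 rose and 0 fell, where 0.697% of all genes rose and 0.158% fell. In Ing4+/- Ing5-/- against Ing4+/- hearts 1 rose and 1 fell (0.76% and 0.399% of all genes). All were signals or receptors, a list of 21 genes. None of the 25 transcription factors (among them Nfatc1, Gata4, Tbx20 and Hand2), 25 tested matrix and hyaluronan genes or 18 tested epithelial, endothelial and mesenchymal state genes was called in any of the 5 comparisons or in the interaction by edgeR. In Ing4+/- Ing5-/- against wild-type hearts these 3 lists held 3, 0 and 2 genes with an unadjusted p under 0.05, a level that 11.4% of all genes reached. No called gene of the 89 appeared in Ing5-/- against wild-type, Ing4+/- against wild-type or Ing4+/- Ing5-/- against Ing5-/- hearts, where 7, 5 and 10 had an unadjusted p under 0.05, as had 9.59%, 4.73% and 6.63% of all genes; without Ing5-/- 2 or without Ing5-/- 4 the first of these comparisons called 1. The median log2 fold change of the 89 in Ing4+/- Ing5-/- against wild-type hearts was 0.02. Levels in the matrix list differed widely. In wild-type hearts Vcan stood at 1102 ± 96.5 CPM and Hapln1 at 517 ± 31.1 CPM, but Has3 at 1.02 ± 0.343 CPM. In Ing4+/- Ing5-/- hearts the levels of these genes were 1236 ± 256, 520.1 ± 55.8 and 1.20 ± 0.251 CPM.

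Vegfa, the vascular endothelial growth factor that restrains cushion EMT when in excess, stood at 102.0, 90.1, 97.2 and 110.7 CPM in wild-type and at 176.0, 240.4, 192.3 and 179.1 CPM in Ing4+/- Ing5-/- hearts, without overlap (log2 fold change 0.98 ± 0.12, edgeR adjusted p = 0.000524). Fitted with a litter block, it was 0.92 with an adjusted p of 0.154. Against Ing4+/- hearts, which had 102.2 to 118.4 CPM, it rose by 0.88 ± 0.12 (adjusted p = 0.00105). The Ing5-/- hearts had 203, 144, 182 and 130.4 CPM, all above all wild-type hearts, with a difference of 0.72 ± 0.12 that missed the threshold (edgeR adjusted p = 0.0681). Between Ing4+/- Ing5-/- and Ing5-/- hearts it was 0.26 ± 0.12 (adjusted p = 0.751). Tgfb1, a transforming growth factor beta ligand, stood at 42.5, 46.0, 44.6 and 42.6 CPM in wild-type and at 47.3, 70.4, 62.9 and 62.4 CPM in Ing4+/- Ing5-/- hearts (0.47 ± 0.10, adjusted p = 0.0318). With log2 fold changes between 0.39 and 0.49, its call was lost with limma-voom (adjusted p = 0.0818), with litter as a random effect (0.0857) and without any of wild-type 1, 2, 3 and 4 (0.112, 0.084, 0.111 and 0.105) or Ing4+/- Ing5-/- 2, 3 and 4 (0.148, 0.0924 and 0.0882). Summed macrophage markers, which can accompany Tgfb1, were 10.03 to 16.3 CPM in wild-type and 39.8 to 62.0 CPM in Ing4+/- Ing5-/- hearts, with all 10 of them detected. In Ing4+/- hearts the sums were 13.1 to 20.7 CPM, with Tgfb1 at 42.3 to 49.5 CPM. In Ing5-/- hearts, in order of replicate, they were 54.1, 47.2, 19.0 and 19.9 CPM, with Tgfb1 at 41.1, 43.6, 45.3 and 54.2 CPM. The part of macrophages in the Tgfb1 level was not tested.

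Acvr1, a type I receptor for bone morphogenetic proteins that the endocardium needs for cushion EMT, fell between Ing4+/- and Ing4+/- Ing5-/- hearts. It stood at 65.1, 59.4, 58.4 and 65.1 CPM in the former and at 42.9, 47.6, 52.1 and 53.2 CPM in the latter, without overlap (log2 fold change -0.34 ± 0.07, edgeR adjusted p = 0.0264). Wild-type hearts had 51.8 to 56.6 CPM and Ing5-/- hearts 44.8 to 50.5 CPM. With log2 fold changes between -0.36 and -0.28, the call was lost with litter as a block (adjusted p = 0.179), in a fit of the 2 genotypes alone (0.0578), without the 3 hearts that stood apart (0.0648), without Ing4+/- Ing5-/- 1 or 2 (0.089 and 0.102) and without Ing4+/- 1, 2 or 4 (0.0966, 0.0561 and 0.0803). The number of called genes among the 89 in this comparison rose from 2 to 7 without the library labelled Ing5-/- 1 and to 4 without Ing5-/- 4. Against wild-type hearts Acvr1 differed by -0.16 ± 0.07 in Ing4+/- Ing5-/- hearts (edgeR adjusted p = 0.415). In Ing4+/- hearts its difference from wild-type was 0.18 ± 0.07 (edgeR adjusted p = 0.963).

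**Figure D4:**
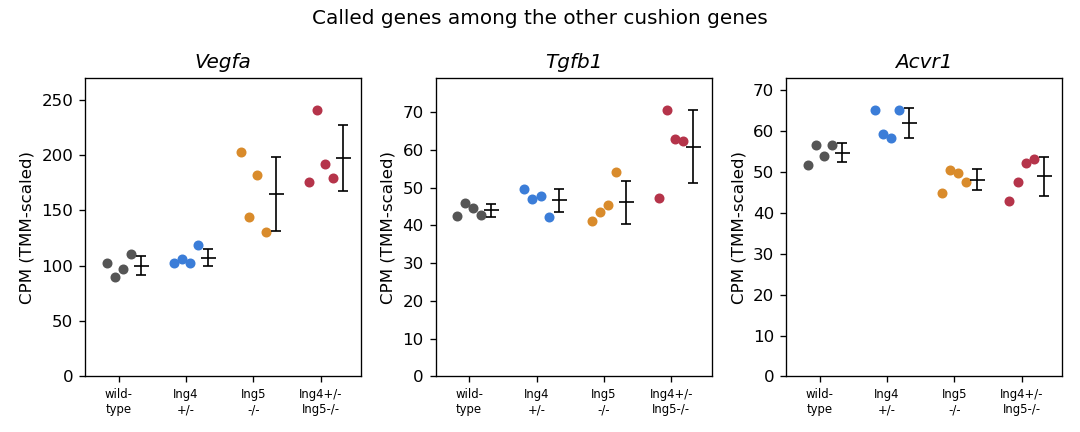
Level (CPM, y axis from 0) of Vegfa, Tgfb1 and Acvr1 in every heart by genotype; circles are hearts and bars are mean ± SD, n = 4. All Ing4+/- Ing5-/- hearts lie above all wild-type hearts for Vegfa and Tgfb1, and below all Ing4+/- hearts for Acvr1.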

How the data were processed

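The authors deposited raw counts per gene, as a series table and as 16 single-heart tables that matched it. bcl2fastq, featureCounts and mm10 are named in the submitters' processing notes; no source used here gives versions, aligner or annotation. The gene length that the authors deposited (other) served RPKM alone. Symbols and positions were taken by Entrez ID from RefSeq GRCm38.p6 (25275 of 27179 IDs matched).

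The model was fitted with edgeR 4.0.16 (R 4.3.3): default low-count filter (15785 genes kept), TMM factors (0.967 to 1.08) and a robust quasi-likelihood fit of 4 genotype means over 16 libraries. Genes with Benjamini-Hochberg adjusted p below 0.05 among all those tested were called. CPM used TMM-scaled library sizes, and the SE was the log2 fold change over the square root of F. Libraries of 1 genotype differed beyond sampling noise (chi-square per df 6.54 to 109), and no 2 were counted as 1. DESeq2 1.42.0, limma 3.58.1 and other settings are given where they change a result. Correlations used 100000 two-sided permutations within genotype. The 10 genes, the lists and the rule for named genes were chosen with earlier results of these data known. The rule named all 10, called genes of the lists and the 3 nearest patterns per gene. Vcan, Hapln1 and Has3 were picked as examples after their values were seen. The scripts were tested on simulated data.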

Additional observations from a re-analysis of the deposited data

Results flagged for a closer look

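In 3 of the 40 sets of 4 hearts (10 genes in 4 genotypes) a single heart lay far from the other 3 by Dixon's gap ratio at the 95% level, which chance gives in about 1 of 20 sets. Postn in the library labelled wild-type 2 stood at 165.8 CPM, against 110.1 to 119.4 CPM in the other wild-type hearts. Postn in Ing4+/- 1 stood at 162.2 CPM, against 117.3 to 122.2 CPM in the others of its genotype. Has2 in Ing4+/- Ing5-/- 4 stood at 61.7 CPM, against 44.8 to 47.7 CPM in the others.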

How the results depend on the processing

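None of the 10 genes was called in any comparison under any of up to 27 other settings (1610 values), and 102 of these values changed sign from an uncalled one. With the replicate block 0 of the 10 were called in each comparison, and 3 of the 89 other cushion genes in Ing4+/- Ing5-/- against wild-type hearts. The replicate numbers were not read as pairing: of 24 pairs of same-numbered hearts 6 had residuals correlated by over 0.1 (median 0.00915), as had 3 of 11 littermate pairs (median 0.0273). Among the 89 other cushion genes the count in Ing4+/- Ing5-/- against wild-type hearts, 2, became 5 with only the groups compared, 4 without the 3 hearts that stood apart, and 1 with limma-voom, with litter as a block or as a random effect; it was 1 to 3 with single hearts left out. In Ing4+/- Ing5-/- against Ing4+/- hearts the count, 2, became 4 with only the groups compared and with DESeq2, and was 1 to 7 with single hearts left out. In Ing5-/- against wild-type hearts the count, 0, became 1 with DESeq2 and without the 3 hearts that stood apart, and was 0 to 1 with single hearts left out. The cause of these shifts was not tested. Counts of 0 did not change elsewhere, nor did the 0 pairs with a pseudocount of 0.25 CPM or without the 3 hearts. The test for any difference among genotypes was not run with DESeq2, limma-voom, litter as a random effect or only the groups compared, and the interaction needs all 4 groups. With 128 to 4883 reads per gene, the spread between hearts sets the limits. With 1 spread per gene shared by the 4 genotypes, the 95% intervals of all 50 estimates lie within 2-fold changes, and smaller changes remain possible.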
